A study of Mus musculus with 8 samples.

Results

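The collagen genes of the mouse uterus were compared between Nr2f2 f/f and Nr2f2 d/d mice. Collagen genes were taken by symbol, as every gene named Col followed by a type number, the letter a and a chain number, which gave 44 of the 24963 genes measured. They were sorted by the structure that their chains form, into 11 fibrillar, 6 basement membrane, 2 multiplexin, 9 fibril-associated (FACIT), 6 beaded filament, 3 short chain network and 4 transmembrane collagen genes and 3 of other kinds.

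Collagens are the main structural proteins of the extracellular matrix, and each molecule is a rope of alpha chains in which glycine recurs along the helix. Type I, III and V collagens are laid down as banded fibrils that carry tensile load, type IV collagen forms the sheet under epithelium and around vessels, and type VI collagen forms fine beaded filaments between them. In the uterus, stromal fibroblasts and smooth muscle cells make most of the fibrillar collagen, and its amount and packing are remodelled in each cycle and in early pregnancy.

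Whole uterine tissue was collected at GD3.5 from C57B6/J females that were mated at 8 weeks, with 4 Nr2f2 f/f and 4 Nr2f2 d/d mice and 1 library per mouse. Nr2f2 f/f mice carry both floxed Nr2f2 alleles and no Cre, and serve as the wild type. Nr2f2 d/d mice carry the same floxed alleles and a Cre knocked into 1 Pgr allele, so that Nr2f2 is removed from cells that have expressed the progesterone receptor. The males were vasectomized, so the uteri of both groups held no embryo. Cre at the Pgr locus is found in the Nr2f2 d/d mice alone and cannot be told apart from the loss of Nr2f2. The mRNA abundance is given as FPKM, the fragments of a gene per kilobase, scaled to the fragments of the library, which allows levels of different genes to be compared per length. By the step between low values, the libraries held 61300000 to 78200000 fragments in Nr2f2 f/f and 61550000 to 92350000 in Nr2f2 d/d. In bulk tissue, fewer cells of a type and less RNA per cell cannot be told apart.

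The groups were compared with limma on log2(FPKM + 0.5) over the 14323 genes that averaged 0.5 FPKM or more, which included 37 of the 44 collagen genes. Differences are on this scale, as Nr2f2 d/d minus Nr2f2 f/f with the standard error (SE), which understates the change of genes near 0.5 FPKM. The study's own threshold, an unadjusted p under 0.05 with a fold change of at least 1.4, is used for counts below and is called the study threshold, and the Benjamini-Hochberg adjusted p over all genes tested is given beside it. "Rose" and "fell" are used only for genes that also passed an adjusted p of 0.05. Nr2f2 itself was 24.1 ± 1.80 FPKM in Nr2f2 f/f against 8.93 ± 1.36 FPKM in Nr2f2 d/d (SD, n = 4 each), with a log2 difference of -1.39 (limma adjusted p = 0.00549). Of 10 endothelial markers, 9 were lower at the study threshold and 6 of them fell. Their summed level was 293.9 to 400.7 FPKM in Nr2f2 f/f against 184.1 to 232.9 in Nr2f2 d/d. The pericyte sum was 176.9 to 211.9 against 126.4 to 142.8 FPKM, with 1 of 6 markers lower, while the 8 epithelial markers summed to 534.2 to 621.5 and 725.1 to 885.8 FPKM and the 4 mesothelial markers to 33.0 to 53.8 and 56.8 to 74.7 FPKM, with 3 and 2 of them higher at the study threshold. Stromal (1165 to 1477 and 1333 to 1434 FPKM), smooth muscle (1297 to 1825 and 1041 to 2561 FPKM) and macrophage sums (102 to 199.9 and 138.7 to 210.9 FPKM) overlapped between the groups, with 2 of 8 stromal markers higher and 3 lower and 0 of the other two lists past that threshold. The Schwann cell and cartilage sums overlapped too. Sox10, Matn1 and Matn3 were at 0 in at least 1 library, and every other marker was detected in all 8.

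Replicate numbers here are those of the sample titles, and the deposited columns number some libraries otherwise, with Nr2f2 f/f replicate 4 as 5 and Nr2f2 d/d replicates 2, 3 and 4 as 3, 4 and 5. The libraries differed in how far their collagen genes lay from the group mean. Of the 14 collagen genes that were higher in Nr2f2 d/d at the study threshold, 13 were highest in Nr2f2 d/d replicate 3 and 12 were lowest in Nr2f2 d/d replicate 4 within that group. Their median deviation from the group mean was 0.92 on the log2 scale in replicate 3 and -0.62 in replicate 4, against 0.00 and -0.03 over all genes tested. In Nr2f2 f/f, replicate 2 was the lowest library for 10 of the 14. The smooth muscle sum was highest in Nr2f2 d/d replicate 4, at 2561 FPKM, and lowest in Nr2f2 d/d replicate 1, at 1041 FPKM. Its part in the collagen levels was not tested.

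At the study threshold, 14 of the 37 collagen genes were higher and 5 were lower in Nr2f2 d/d, whereas 8.8% of all genes tested met it, 4.7% higher and 4.1% lower. After adjustment 2 passed, Col1a2 and Col18a1, 1 higher and 1 lower, against 2.62% of all genes tested, 1.09% higher and 1.53% lower. The FPKM of the 2 groups did not overlap for 9 genes that were higher and 4 that were lower in Nr2f2 d/d, where 15.4% of all genes tested showed no overlap, 5.49% higher and 9.91% lower. The median log2 difference was 0.50 over the 37 genes and -0.02 over all genes tested. Without Nr2f2 d/d replicate 3, 12 were higher and 6 lower, and without Nr2f2 d/d replicate 4, 15 and 4. The number higher was 9 without Nr2f2 f/f replicate 1 or replicate 2. The number lower was 3 without Nr2f2 f/f replicate 4, and leaving out Nr2f2 d/d replicate 2 left 2. When every library was scaled to the same FPKM total, 11 were higher and 6 lower.

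**Figure D1:**
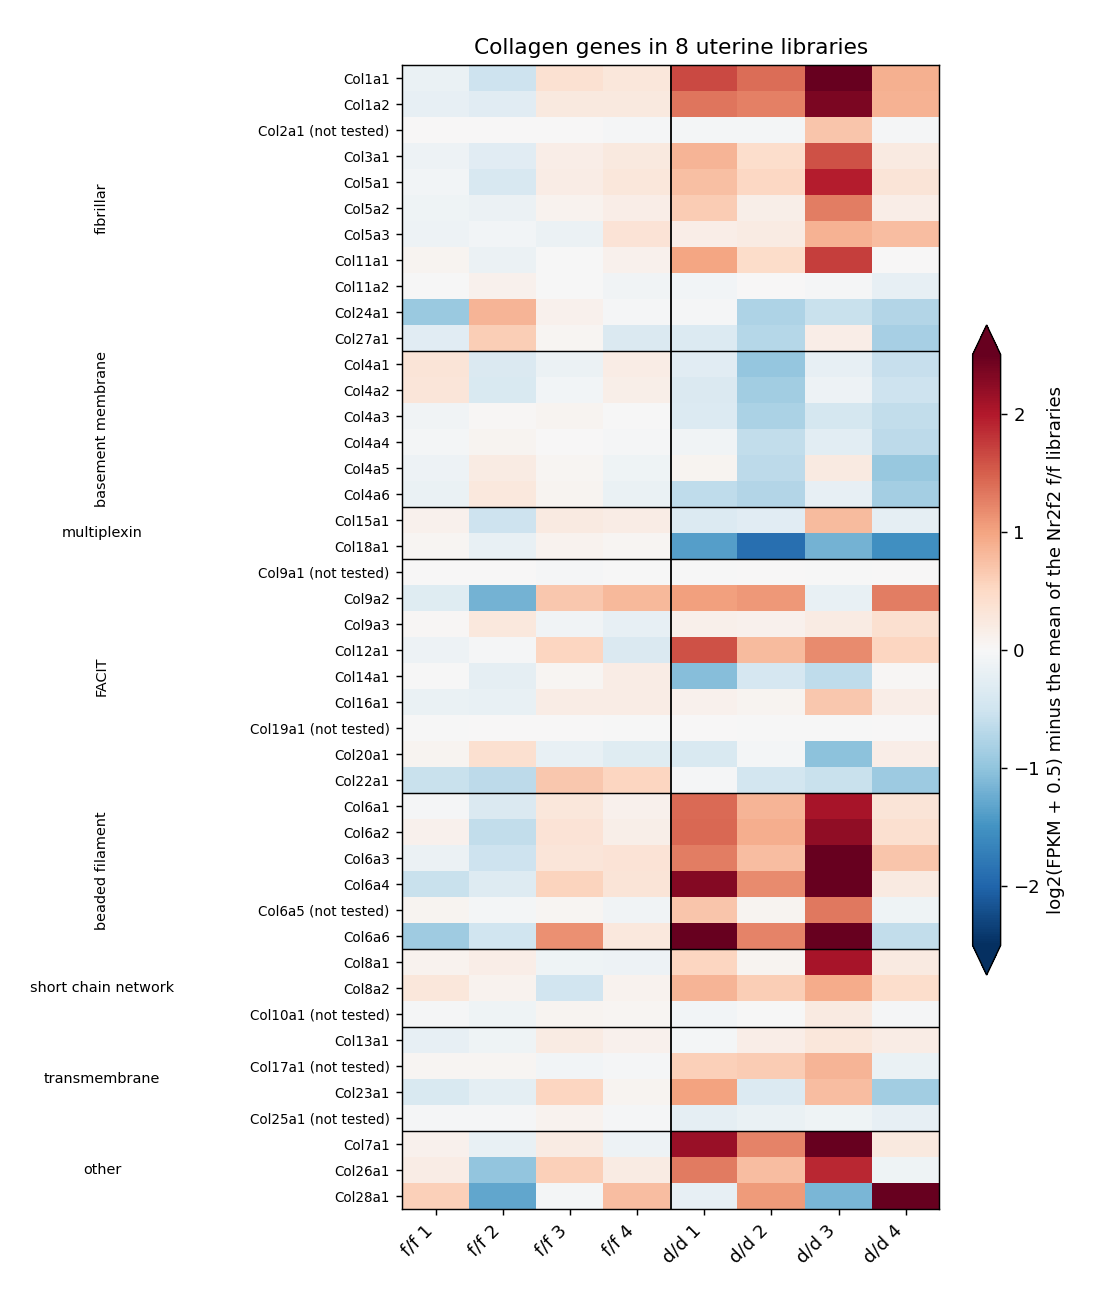
Each row is 1 of the 44 collagen genes, grouped by class, and each column is 1 library; colour is log2(FPKM + 0.5) minus the mean of the Nr2f2 f/f libraries, and values past the ends of the scale take the end colours. The beaded filament rows other than Col6a5 and those of Col1a1, Col1a2, Col3a1, Col5a1, Col5a2 and Col11a1 are red in most Nr2f2 d/d libraries and deepest in replicate 3. The Col6a5 row is clearly red only in Nr2f2 d/d replicates 1 and 3. The 6 basement membrane rows are mostly pale blue, and Col18a1 is blue in all 4 Nr2f2 d/d libraries.

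Counts and medians differed by class. Among the fibrillar genes, 7 of 10 tested were higher and 0 lower at the study threshold, with a median log2 difference of 0.67, or 0.43 without Nr2f2 d/d replicate 3. Of the beaded filament genes, 4 of 5 were higher and 0 lower, with a median of 1.34, or 0.915 at the lowest with 1 library left out. All 6 basement membrane genes had negative changes, 3 of them lower at the study threshold, with a median of -0.49. In the multiplexin pair Col18a1 fell and the log2 difference of Col15a1 was -0.01. The FACIT class had 1 higher and 1 lower of 7, the short chain network class 1 higher of 2, the transmembrane class 0 of 2 and the remaining class 1 higher of 3.

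**Figure D2:**
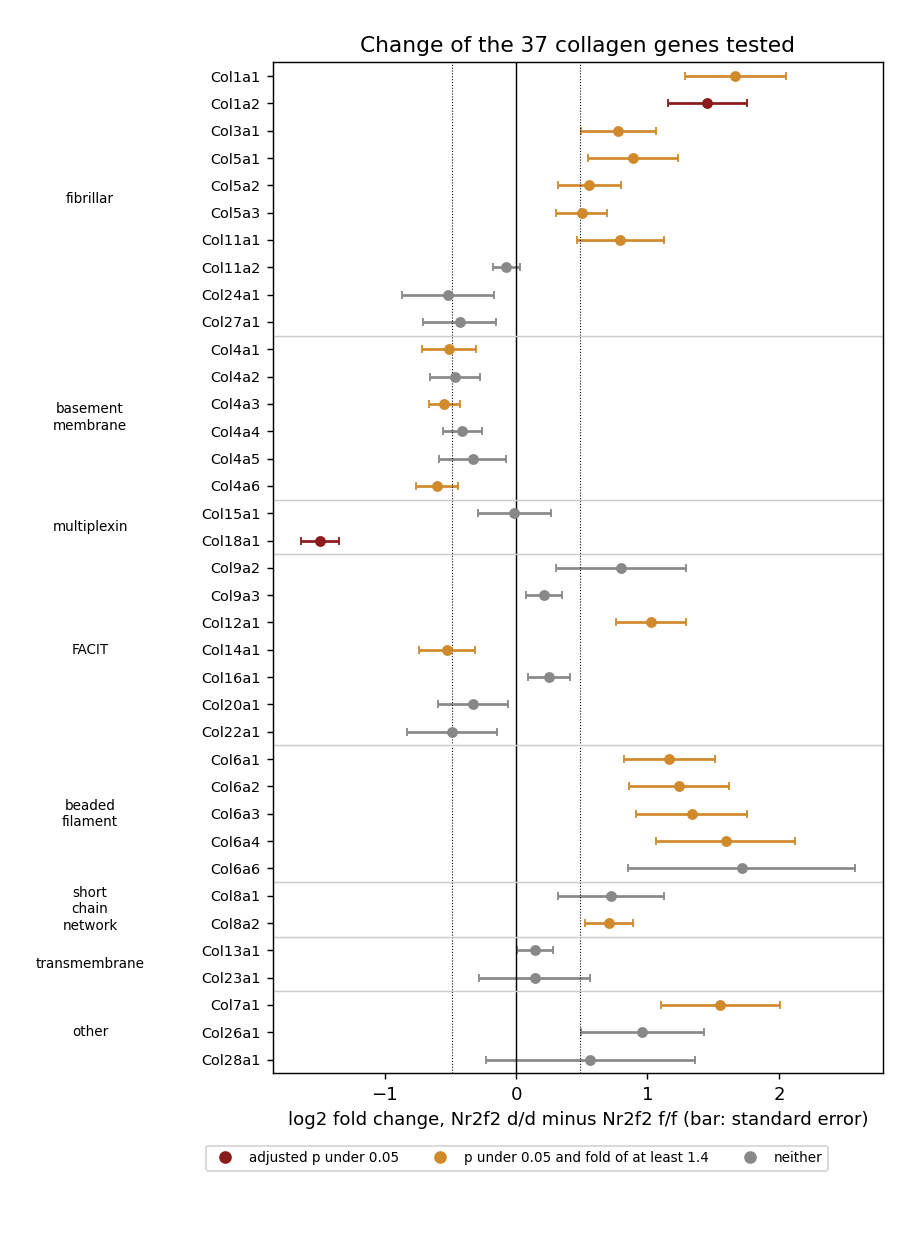
Points are the log2 differences of the 37 tested collagen genes, Nr2f2 d/d minus Nr2f2 f/f, with bars for the standard error and dotted lines at a 1.4-fold change. Col1a2 and Col18a1 are the 2 genes in dark red, on opposite sides of 0, and the 6 basement membrane genes all lie to the left of 0.

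The promoter sequences of a few members are given because these genes differed in opposite directions in the same tissue and NR2F2 is a nuclear receptor that binds half-sites such as AGGTCA, in which the leading base may also be G (GGGTCA). The 250 bases before each RefSeq start were read on GRCm38.p6, with capitals for a match on either strand to those half-sites, to the letters CCAAT or to the TATA-like letters TATAAA. A match is a description of the letters and not a binding site, and no 2 of the motifs overlap in these windows. The first is that of Col1a2, whose RefSeq start lies inside the longer GENCODE gene, on chr6:4505368-4505617, plus strand, with CCAAT 109 bases before the start. Col3a1 is at chr1:45311288-45311537, plus strand, with TATAAA 117 bases before the start. Col7a1 is at chr9:108953336-108953585, plus strand, with AGGTCA on the reverse strand 140 bases before the start, and CCAAT on the reverse strand opens the window. Col18a1 has a pair of starts on the minus strand of chromosome 10, the upstream one at chr10:77166531-77166780 with CCAAT on the reverse strand at 210 and the downstream one at chr10:77113706-77113955 with none of the motifs.
Col1a2: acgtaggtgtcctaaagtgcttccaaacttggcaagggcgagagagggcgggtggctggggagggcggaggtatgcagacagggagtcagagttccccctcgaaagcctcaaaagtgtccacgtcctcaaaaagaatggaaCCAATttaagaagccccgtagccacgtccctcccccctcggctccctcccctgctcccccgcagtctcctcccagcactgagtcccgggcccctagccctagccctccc
Col3a1: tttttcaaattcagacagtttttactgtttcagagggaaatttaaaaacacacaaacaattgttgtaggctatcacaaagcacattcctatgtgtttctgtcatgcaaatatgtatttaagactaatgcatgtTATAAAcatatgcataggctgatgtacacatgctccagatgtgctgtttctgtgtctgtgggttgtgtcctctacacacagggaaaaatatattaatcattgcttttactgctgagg
Col7a1: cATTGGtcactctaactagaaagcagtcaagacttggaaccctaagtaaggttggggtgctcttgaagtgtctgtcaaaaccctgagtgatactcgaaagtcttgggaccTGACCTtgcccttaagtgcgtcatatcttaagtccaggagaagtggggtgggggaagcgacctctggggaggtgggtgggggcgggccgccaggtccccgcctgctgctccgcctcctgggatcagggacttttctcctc
Col18a1 upstream start: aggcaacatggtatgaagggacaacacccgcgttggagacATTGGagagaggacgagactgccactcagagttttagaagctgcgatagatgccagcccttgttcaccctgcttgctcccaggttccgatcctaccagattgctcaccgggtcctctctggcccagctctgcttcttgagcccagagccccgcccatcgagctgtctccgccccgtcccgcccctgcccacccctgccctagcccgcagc
Col18a1 downstream start: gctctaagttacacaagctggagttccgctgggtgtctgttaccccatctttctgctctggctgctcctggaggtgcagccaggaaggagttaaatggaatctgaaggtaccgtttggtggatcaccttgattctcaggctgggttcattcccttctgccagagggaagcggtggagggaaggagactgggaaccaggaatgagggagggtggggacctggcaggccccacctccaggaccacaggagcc

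RefSeq windows were found for 35 of the 44 genes, in 38 windows. No window was found for Col1a1, Col2a1, Col4a3, Col5a2, Col9a3, Col12a1, Col14a1, Col22a1 or Col26a1. AGGTCA was present in 8 of the 38 and in 14.0% of 32851 mouse promoters of the same length, and GGGTCA in 5 and in 11.6%. Either was present in 11 and in 23.8%, CCAAT in 13 and in 33.8%, and TATAAA in 5 and in 12.4%. Of the 11 genes with a half-site, Col7a1, Col11a1 and Col6a2 were higher at the study threshold and 0 were lower. Over all 37 collagen genes tested, 14 were higher and 5 lower, and of those lower Col4a3 and Col14a1 had no window. Among the rest with a half-site, Col4a4, Col20a1 and Col24a1 had negative and Col23a1 a positive difference that missed the threshold. Col6a5, Col9a1, Col17a1 and Col19a1 were not tested.

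Fibrillar genes and Col6a1 held the most abundant collagen mRNAs. Col3a1, the chain of type III collagen, was the highest in Nr2f2 f/f at 431 ± 72.3 FPKM (SD, n = 4), followed by Col1a2 at 237 ± 45.9, Col6a1 at 215 ± 38.5 and Col1a1 at 175 ± 48.0. Col3a1 lay above the others in every library, and the last 3 overlapped with their neighbours in that order. In Nr2f2 d/d the order was Col3a1 at 784 ± 355 FPKM, Col1a2 at 694 ± 339, Col1a1 at 608 ± 367 and Col6a1 at 526 ± 270 (SD, n = 4 each), and all 4 overlapped.

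Col1a1 and Col1a2 encode the alpha chains of type I collagen, the bulk protein of fibrils. Col1a2, on chromosome 6 from 4504814 to 4541544, was at 203, 193, 278 and 276 FPKM in Nr2f2 f/f replicates 1 to 4 and at 595, 562, 1191 and 429 FPKM in Nr2f2 d/d replicates 1 to 4. Every Nr2f2 d/d uterus was above every Nr2f2 f/f uterus, and the lowest was replicate 4. Col1a2 rose 2.92-fold, with a log2 difference of 1.46 (SE 0.302, limma adjusted p = 0.0484). Col1a1, on chromosome 11 from 94936224 to 94953042, was at 151, 119, 222 and 206 FPKM in Nr2f2 f/f and 533, 444, 1141 and 314 FPKM in Nr2f2 d/d, again without overlap. Its log2 difference was 1.67 (SE 0.386, limma adjusted p = 0.0626). Both genes met the study threshold in all 8 fits that each left out 1 library, but Col1a2 passed the adjustment in only 2 of these, without Nr2f2 d/d replicate 3 or 4.

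Col3a1 was less far apart, at 391, 351, 479 and 504 FPKM in Nr2f2 f/f and 767, 577, 1289 and 502 FPKM in Nr2f2 d/d. Nr2f2 d/d replicate 4 lay inside the Nr2f2 f/f range and the other 3 above it, with a log2 difference of 0.78 (SE 0.287, limma adjusted p = 0.181). It lies on chromosome 1, 24.6 kb from Col5a2, which is transcribed from the opposite strand and had a log2 difference of 0.56. Col3a1 met the study threshold in 5 of the 8 leave-one-out fits and Col5a2 in 2, and without Nr2f2 d/d replicate 3 their log2 differences were 0.51 and 0.32.

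Type V and XI collagens set the diameter of fibrils from inside them. Col5a1 was at 21.8, 17.0, 26.0 and 27.7 FPKM in Nr2f2 f/f and 38.8, 32.9, 89.6 and 28.7 FPKM in Nr2f2 d/d, with a log2 difference of 0.89 (SE 0.342, limma adjusted p = 0.194). The groups did not overlap, by a margin of 1 FPKM between the highest Nr2f2 f/f and the lowest Nr2f2 d/d library. Without Nr2f2 d/d replicate 3 the log2 difference of Col5a1 was 0.54, and it met the study threshold in 6 of the 8 leave-one-out fits. Col5a2 was at 39.0, 38.0, 44.7 and 47.2 FPKM in Nr2f2 f/f and 65.6, 46.7, 102 and 47.4 FPKM in Nr2f2 d/d, where replicate 2 lay inside the Nr2f2 f/f range and replicate 4 just above it. Col5a3 was at 5.72, 5.95, 5.63 and 8.06 FPKM in Nr2f2 f/f and 7.08, 7.285, 11.9 and 11.04 FPKM in Nr2f2 d/d, with a log2 difference of 0.50. Unlike most of the class it was high in Nr2f2 d/d replicate 4. Col11a1 was at 2.72 to 3.37 FPKM in Nr2f2 f/f and 6.63, 4.42, 11.4 and 3.09 FPKM in Nr2f2 d/d, with a log2 difference of 0.79, and Col11a2, the partner chain, at 0.716 to 0.89 and 0.613 to 0.796 FPKM with a log2 difference of -0.07. Col5a3 met the study threshold in 3 and Col11a1 in 2 of the 8 leave-one-out fits, and the log2 difference of Col11a1 was 0.48 without Nr2f2 d/d replicate 3.

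The other fibrillar genes had little mRNA. Col24a1, at 1.825 to 7.42 FPKM in Nr2f2 f/f and 2.09 to 3.83 FPKM in Nr2f2 d/d, had a log2 difference of -0.52 (SE 0.349, limma adjusted p = 0.425). Col27a1, at 3.00 to 6.38 and 2.04 to 4.59 FPKM, had a log2 difference of -0.43 (limma adjusted p = 0.404). In both genes Nr2f2 f/f replicate 2 was the highest of the 8 libraries, and without it their log2 differences were -0.23 each. Without Nr2f2 f/f replicate 1 that of Col24a1 was -0.82. Col2a1, the cartilage collagen, was at most 0.028 FPKM in 7 libraries and at 0.34 FPKM in Nr2f2 d/d replicate 3, and was not tested.

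**Figure D3:**
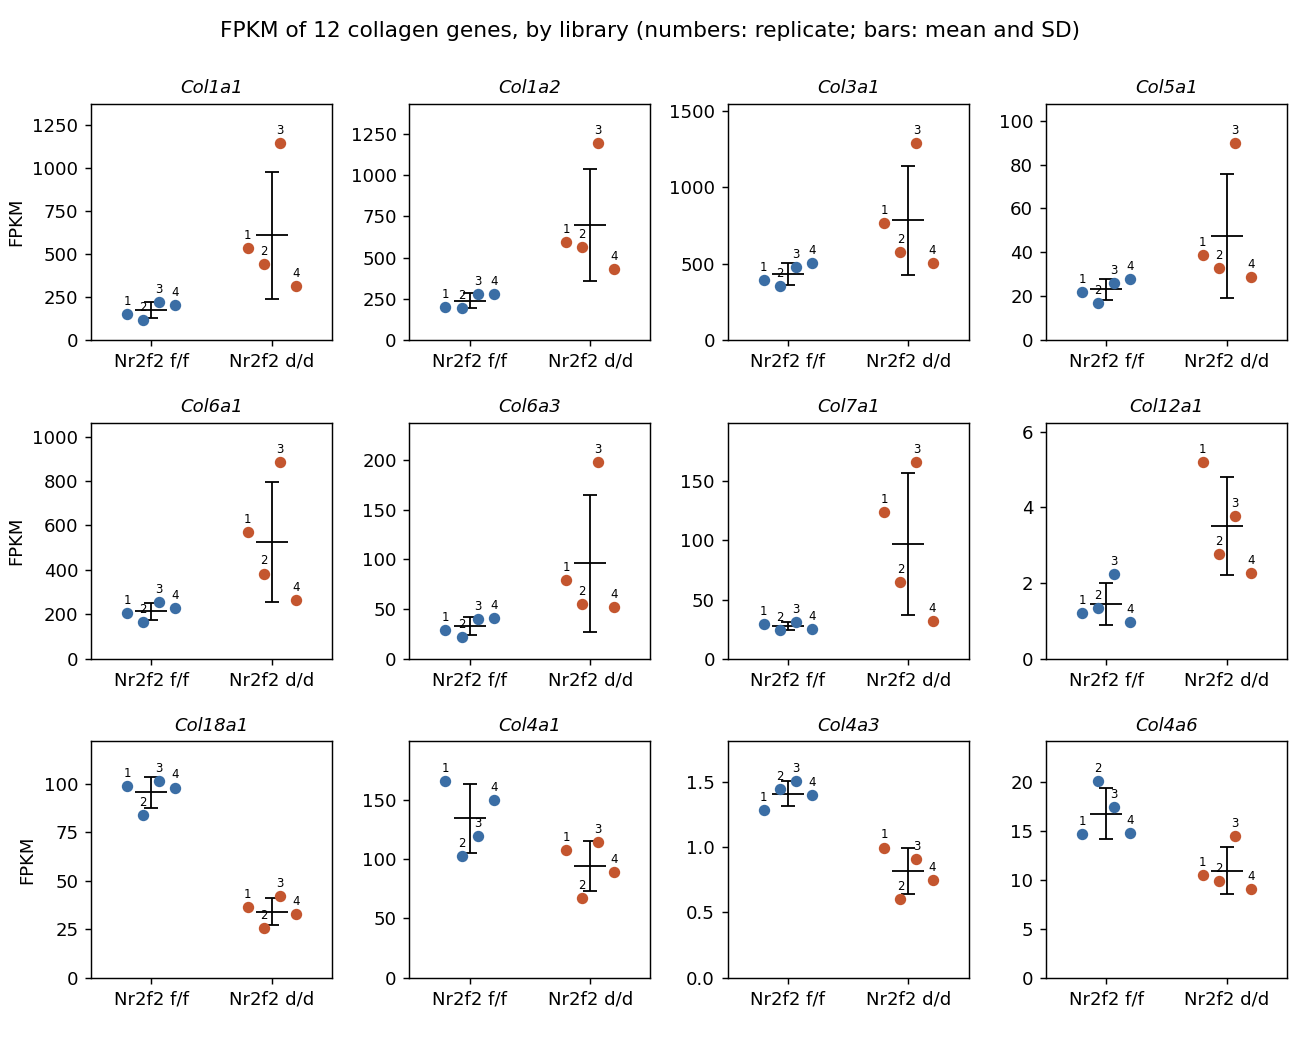
FPKM of 12 collagen genes in each library, numbered by replicate, with the mean and SD of each group. In the upper 8 panels Nr2f2 d/d replicate 3 is the highest point for all but Col12a1 and replicate 4 is the lowest Nr2f2 d/d point, while Col18a1, Col4a3 and Col4a6 lie lower in all 4 Nr2f2 d/d libraries.

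Type VI collagen, which links fibrils to cells and basement membranes, was higher through all 3 of its main chains. Col6a1 was at 208, 166, 257 and 228 FPKM in Nr2f2 f/f and 570.2, 384, 885 and 267 FPKM in Nr2f2 d/d, with a log2 difference of 1.17 (SE 0.344, limma adjusted p = 0.110). Col6a2 was at 130.2, 79.0, 154 and 134 FPKM in Nr2f2 f/f and 326, 227, 566 and 161 FPKM in Nr2f2 d/d, with a log2 difference of 1.24 (SE 0.382, limma adjusted p = 0.122). Col6a3 was at 29.0, 22.3, 39.9 and 41.1 FPKM and 79.0, 55.1, 198 and 51.9 FPKM, with a log2 difference of 1.34 (SE 0.420, limma adjusted p = 0.129). None of the 3 overlapped between groups, each missed the adjusted threshold, and each met the study threshold in all 8 leave-one-out fits.

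The further type VI chains lie together on the minus strand of chromosome 9, Col6a4 28.8 kb from Col6a5 and Col6a5 27.9 kb from Col6a6. Col6a4 was at 20.2, 23.8, 44.55 and 37.5 FPKM in Nr2f2 f/f and 149.9, 69.0, 194 and 35.0 FPKM in Nr2f2 d/d, with a log2 difference of 1.59 (SE 0.529, limma adjusted p = 0.145). Nr2f2 d/d replicate 4 was within the Nr2f2 f/f range. Col6a6 was at 0.405, 0.685, 3.19 and 1.51 FPKM and 11.7, 3.47, 16.9 and 0.597 FPKM, with a log2 difference of 1.72 that missed both thresholds (SE 0.862, limma adjusted p = 0.295). Col6a5 was under the level needed for a test, at 0.124 to 0.196 FPKM in Nr2f2 f/f and 0.575, 0.193, 1.16 and 0.116 FPKM in Nr2f2 d/d. All 3 genes had their highest value in replicate 3 and their lowest Nr2f2 d/d value in replicate 4.

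Type IV collagen genes are arranged in pairs that share a start region and are transcribed away from each other. Col4a1 and Col4a2, whose chains make the basement membrane of nearly every tissue, overlap by 22 bases on chromosome 8. Col4a1 was at 166, 102, 119 and 149.6 FPKM in Nr2f2 f/f and 108, 67.2, 114 and 88.7 FPKM in Nr2f2 d/d, with a log2 difference of -0.51 (SE 0.206, limma adjusted p = 0.211). Col4a2 followed it library by library, at 104, 64.8, 80.0 and 94.0 FPKM and 66.0, 46.2, 77.3 and 58.7 FPKM, with a log2 difference of -0.47 (SE 0.191, limma adjusted p = 0.214). The groups overlapped for both genes. Col4a1 met the study threshold in 4 of the 8 leave-one-out fits, and with median-ratio scaling its log2 difference of -0.48 was just under 1.4-fold. Both were also divided by the summed endothelial markers of the same library, a measure chosen after the values were seen. Col4a1 was then 0.391 ± 0.0809 in Nr2f2 f/f against 0.463 ± 0.0984 in Nr2f2 d/d and Col4a2 0.251 ± 0.0520 and 0.303 ± 0.0512 (SD, n = 4 each). Both overlapped, with higher means in Nr2f2 d/d, where the divisor itself was lower.

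Col4a3 and Col4a4 encode chains known from kidney, lung and inner ear basement membranes and were scarce in the uterus. They start 71 bases apart on chromosome 1, and the shared stretch is given because both genes were lower without overlap. It is read on the strand of Col4a4, at chr1:82586850-82586920 of GRCm38.p6, with 69.0% G and C, and holds none of the 4 motifs above.
Col4a4 to Col4a3 gap: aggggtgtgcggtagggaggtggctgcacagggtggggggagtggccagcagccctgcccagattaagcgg

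Col4a3 was at 1.29, 1.45, 1.51 and 1.397 FPKM in Nr2f2 f/f and 0.997, 0.604, 0.911 and 0.751 FPKM in Nr2f2 d/d, with a log2 difference of -0.55 (SE 0.120, limma adjusted p = 0.0538). Col4a4 was at 1.06, 1.21, 1.14 and 1.08 FPKM and 1.04, 0.553, 0.847 and 0.526 FPKM, with a log2 difference of -0.41 (limma adjusted p = 0.176). Every Nr2f2 d/d value was below every Nr2f2 f/f value for both, although Col4a4 in Nr2f2 d/d replicate 1 was only just below. At their level, near the 0.5 FPKM added before the log, the FPKM themselves give means of 57.9% and 65.9% of Nr2f2 f/f.

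Col4a5 and Col4a6 are neighbours on the X chromosome, 1308 bases apart. Col4a6, found with smooth muscle and epithelium, was at 14.7, 20.1, 17.5 and 14.7 FPKM in Nr2f2 f/f and 10.5, 9.81, 14.4 and 9.03 FPKM in Nr2f2 d/d, without overlap. Its log2 difference was -0.60 (SE 0.159, limma adjusted p = 0.0852), and it met the study threshold in all 8 leave-one-out fits. Col4a5 was at 28.2, 35.8, 32.1 and 28.7 FPKM and 32.6, 19.6, 36.2 and 15.8 FPKM, with Nr2f2 d/d replicates 1 and 3 inside or above the Nr2f2 f/f range and replicates 2 and 4 below it, and a log2 difference of -0.33 (limma adjusted p = 0.487) that was -0.12 without replicate 4.

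Multiplexins are basement membrane proteins with interrupted helices, and the tail of the Col18a1 product is the source of endostatin. Col18a1, on chromosome 10 from 77052178 to 77166548, was at 98.6, 83.8, 101 and 97.9 FPKM in Nr2f2 f/f and 36.2, 25.5, 41.8 and 32.6 FPKM in Nr2f2 d/d. The lowest Nr2f2 f/f library was above the highest Nr2f2 d/d library, and the mean left in Nr2f2 d/d was 35.7% of that in Nr2f2 f/f. The log2 difference was -1.49 (SE 0.146, limma adjusted p = 0.00653). Col18a1 passed an adjusted p of 0.05 in all 8 fits that left out 1 library. That difference then ranged from -1.60 to -1.36. Col15a1, its closest relative and also a vessel-associated collagen, was at 76.2, 49.5, 82.6 and 81.1 FPKM in Nr2f2 f/f and 56.0, 58.5, 123 and 60.5 FPKM in Nr2f2 d/d, with a log2 difference of -0.01 (SE 0.278, limma adjusted p = 0.986). Its sign turned with median-ratio scaling and in 6 of the 8 leave-one-out fits. Per summed endothelial marker level, the measure chosen after the values were seen, Col18a1 was lower in every Nr2f2 d/d library, at 0.281 ± 0.0544 in Nr2f2 f/f against 0.166 ± 0.0269 in Nr2f2 d/d, and Col15a1 was higher in every one, at 0.215 ± 0.0660 and 0.357 ± 0.114 (SD, n = 4 each). The divisor was itself lower in Nr2f2 d/d, at 184.1 to 232.9 FPKM against 293.9 to 400.7 in Nr2f2 f/f. A gene with unchanged FPKM, such as Col15a1, therefore has a higher ratio. The part of endothelium, epithelium and smooth muscle in the levels of Col18a1 and Col15a1 was not tested.

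Col6a2, Col6a1 and Col18a1 lie in this order on the minus strand of chromosome 10, with 85.2 kb between the first pair and 326 kb between Col6a1 and Col18a1. Col6a1 and Col6a2 were higher in every Nr2f2 d/d library and Col18a1 lower in every one. The ratio of Col18a1 to Col6a1 was 0.451 ± 0.0492 in Nr2f2 f/f against 0.0749 ± 0.0328 in Nr2f2 d/d (SD, n = 4 each).

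FACIT collagens sit on the surface of fibrils. Col12a1 was at 1.22, 1.34, 2.25 and 0.961 FPKM in Nr2f2 f/f and 5.19, 2.77, 3.78 and 2.255 FPKM in Nr2f2 d/d, with a log2 difference of 1.03 (SE 0.266, limma adjusted p = 0.0804). The groups were apart by less than 0.01 FPKM, and replicate 1, not replicate 3, was the highest. Col14a1, which belongs to the same structural group, was lower, at 12.6, 10.7, 13.2 and 14.4 FPKM in Nr2f2 f/f and 5.77, 9.30, 8.01 and 12.9 FPKM in Nr2f2 d/d, with a log2 difference of -0.53 (SE 0.215, limma adjusted p = 0.214). Here replicate 4 was inside the Nr2f2 f/f range, and the gene met the study threshold in 2 of the 8 leave-one-out fits, with a log2 difference of -0.34 without Nr2f2 d/d replicate 1. Col16a1, the most abundant FACIT gene, was at 29.4 to 38.3 FPKM in Nr2f2 f/f and 36.0, 35.2, 54.2 and 37.9 FPKM in Nr2f2 d/d, with a log2 difference of 0.25 that missed both thresholds and was 0.11 without Nr2f2 d/d replicate 3. Col9a2, Col9a3, Col20a1 and Col22a1 had log2 differences of 0.80, 0.21, -0.33 and -0.49 and overlapped between groups. The difference was 0.40 for Col9a2 without Nr2f2 f/f replicate 2, -0.09 for Col20a1 without Nr2f2 d/d replicate 3 and -0.26 for Col22a1 without Nr2f2 f/f replicate 3. Col9a1 was at 0.012 to 0.027 FPKM in Nr2f2 f/f and 0.016 to 0.024 FPKM in Nr2f2 d/d, and Col19a1 was at 0 in 4 of 8 libraries and at most 0.004 FPKM, below the 0.00472 to 0.00711 FPKM that 3 fragments are worth in these libraries.

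Type VII collagen forms the anchoring fibrils that tie epithelial basement membrane to the matrix below. Col7a1 was at 29.4, 24.1, 31.5 and 24.9 FPKM in Nr2f2 f/f and 124, 64.9, 166 and 32.3 FPKM in Nr2f2 d/d, with a log2 difference of 1.55 (SE 0.456, limma adjusted p = 0.108). The groups did not overlap, but replicate 4 was less than 1 FPKM above the highest Nr2f2 f/f library. Without replicate 4 Col7a1 and Col1a1 joined Col1a2 and Col18a1 among the genes past the adjusted threshold. Of the 8 epithelial markers, 7 had positive differences and 3 were higher at the study threshold, with sums that did not overlap, and their part in the Col7a1 level was not tested. Col17a1, the hemidesmosome collagen of epithelial cells, was not tested at 0.22 to 0.289 FPKM in Nr2f2 f/f and 0.64, 0.678, 0.863 and 0.175 FPKM in Nr2f2 d/d, where replicate 4 was the lowest of the 8 libraries.

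The remaining genes were low or variable. Col8a2, a chain of the sheet-forming type VIII collagen, was at 2.79, 2.37, 1.43 and 2.365 FPKM in Nr2f2 f/f and 4.325, 3.62, 4.65 and 3.15 FPKM in Nr2f2 d/d, without overlap, with a log2 difference of 0.71 (SE 0.184, limma adjusted p = 0.0806). Its partner Col8a1 was at 0.226 to 0.388 FPKM in Nr2f2 f/f and 0.656, 0.34, 2.81 and 0.427 FPKM in Nr2f2 d/d. Col8a1 averaged 0.299 FPKM in Nr2f2 f/f and passed the filter only through its Nr2f2 d/d values. Its log2 difference of 0.72 missed both thresholds (limma adjusted p = 0.340). Col26a1, first described in testis and ovary, was at 6.80, 2.70, 9.195 and 6.815 FPKM and 15.2, 10.4, 23.0 and 5.45 FPKM, with a log2 difference of 0.96 (limma adjusted p = 0.284) that was 0.63 without Nr2f2 f/f replicate 2. Col28a1, a collagen of peripheral nerve, was at 1.85, 0.134, 1.02 and 2.15 FPKM and 0.853, 2.78, 0.212 and 8.59 FPKM, and its sign turned without Nr2f2 d/d replicate 4. The Schwann cell marker sums overlapped, at 1.596 to 2.55 and 1.60 to 1.801 FPKM. Col13a1 and Col23a1 had log2 differences of 0.14 each, that of Col13a1 being 0.076 without Nr2f2 f/f replicate 1, and Col10a1 was at 0.01 to 0.074 and 0.021 to 0.141 FPKM. Col25a1, also not tested, was at 0.137 to 0.194 FPKM in Nr2f2 f/f and 0.058 to 0.108 FPKM in Nr2f2 d/d, below in every library.

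The makeup of the collagen mRNA was compared as well as its amount. The summed FPKM of the 44 genes were 1794, 1474, 2118 and 2100 in Nr2f2 f/f and 3681, 2791, 6389 and 2240 in Nr2f2 d/d, or 0.446 to 0.628% and 0.632 to 1.82% of all FPKM of a library. Fibrillar genes gave 49.5 ± 2.57% of that sum in Nr2f2 f/f against 58.8 ± 2.59% in Nr2f2 d/d, and beaded filament genes 21.5 ± 1.58% and 27.4 ± 3.43% (SD, n = 4 each), with the 3 genes Col1a1, Col1a2 and Col3a1 alone at 44.9 ± 2.43% and 55.1 ± 2.47%. Basement membrane genes gave 14.7 ± 2.41% and 5.67 ± 1.65%, and multiplexins 9.0 ± 0.539% and 3.06 ± 0.765%. The FPKM sums of these classes overlapped between groups, at 225.7 to 315.5 and 144.0 to 243.6 for basement membrane genes and 133.3 to 184.0 and 84.1 to 164.6 for multiplexins. Nr2f2 d/d replicate 4, whose sum was close to that of Nr2f2 f/f, had 59.8% fibrillar, 7.75% basement membrane and 4.16% multiplexin mRNA, outside the ranges over Nr2f2 f/f of 45.7 to 51.5%, 11.9 to 17.6% and 8.53 to 9.74%. Its beaded filament share of 23.0% was inside the range of 19.8 to 23.6%.

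**Figure D4:**
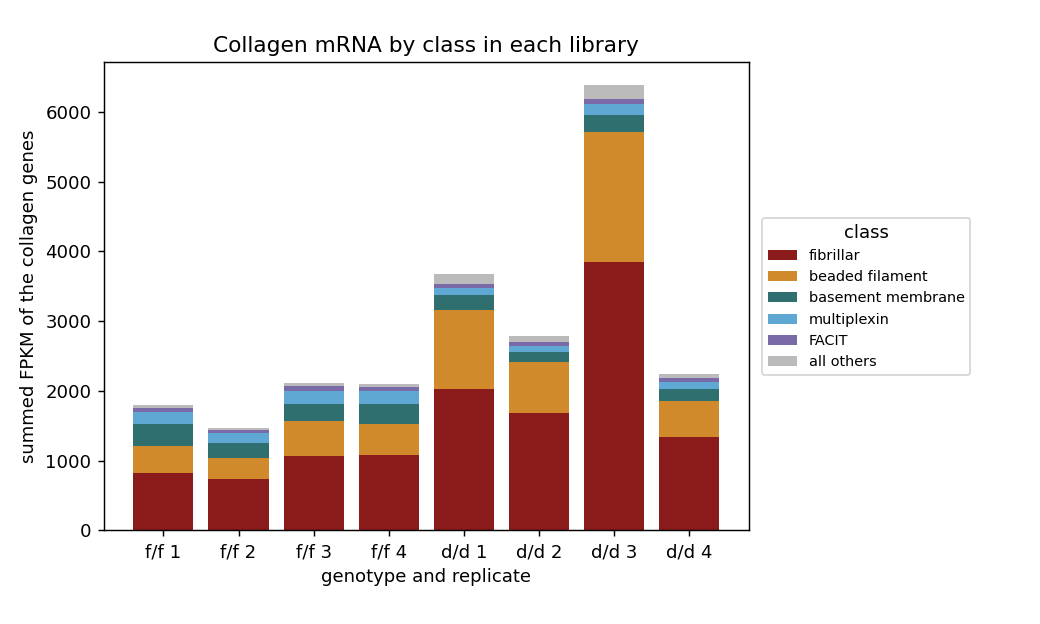
Bars are the summed FPKM of the 44 collagen genes in each of the 8 libraries, stacked by class. Nr2f2 d/d replicate 3 reaches 6389 FPKM and replicate 4, at 2240, is close to the tallest Nr2f2 f/f bars, but the basement membrane and multiplexin parts are a smaller share of all 4 Nr2f2 d/d bars.

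Chains that build the same molecule were compared within each library, as 10 ratios listed for their known trimers. A further 3 ratios, between chains of different molecules, were added after the values were seen. The ratio of Col4a1 to Col4a2 was 1.56 ± 0.0496 in Nr2f2 f/f against 1.52 ± 0.0816 in Nr2f2 d/d, that of Col6a1 to Col6a2 1.77 ± 0.225 and 1.67 ± 0.0774, and that of Col1a1 to Col1a2 0.727 ± 0.0779 and 0.844 ± 0.102 (SD, n = 4 each), all overlapping. The ratio of Col5a1 to Col5a2, at 0.544 ± 0.0653 and 0.694 ± 0.131, and that of Col11a1 to Col11a2, at 3.95 ± 0.690 and 8.62 ± 4.52, did not overlap, higher in Nr2f2 d/d. The ratios of Col4a3 to Col4a4, Col4a5 to Col4a6, Col6a3 to Col6a1, Col8a1 to Col8a2 and Col9a1 to Col9a2 overlapped. Between molecules, none of the 3 added ratios overlapped, and that of Col18a1 to Col6a1 could not, since both genes separated in opposite directions. These were Col1a1 to Col3a1 at 0.399 ± 0.0521 and 0.743 ± 0.111, Col18a1 to Col15a1 at 1.36 ± 0.229 and 0.490 ± 0.132 (SD, n = 4 each), and Col18a1 to Col6a1, given above.

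**Figure D5:**
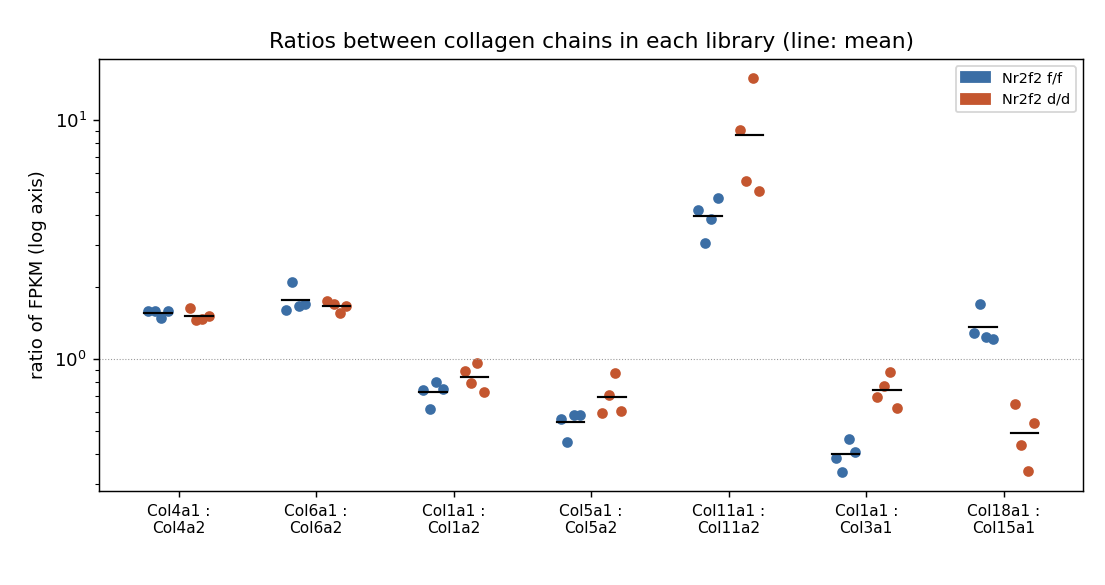
Points are the ratio of the FPKM of 2 chains in each library, on a log axis, with a line at each group mean. The ratios of Col4a1 to Col4a2 and Col6a1 to Col6a2 lie at the same height in both groups, while Col1a1 to Col3a1 is higher and Col18a1 to Col15a1 lower in all 4 Nr2f2 d/d libraries.

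Genes that modify, process, cross-link or bind collagen were read from the same fit. Of 44 such genes tested, from a list of 47, 8 were higher and 0 lower at the study threshold, and 3 rose after adjustment, against 4.7% higher, 4.1% lower and 1.09% higher after adjustment among all genes tested. Their median log2 difference was 0.20. In chain modification and folding, 3 of 22 were higher. P4ha3, a catalytic subunit of prolyl 4-hydroxylase, was at 0.57, 0.605, 0.413 and 0.475 FPKM in Nr2f2 f/f and 0.919, 1.08, 1.14 and 1.70 FPKM in Nr2f2 d/d, with a log2 difference of 0.73 (limma adjusted p = 0.0491), and passed the adjustment in 0 of the 8 leave-one-out fits. Creb3l1, a transcription factor of the secretory pathway known to act on Col1a1, was 11.3 ± 3.24 FPKM in Nr2f2 f/f and 22.5 ± 9.36 FPKM in Nr2f2 d/d (SD, n = 4 each), with a log2 difference of 0.92 (limma adjusted p = 0.154). Colgalt2, which adds galactose to hydroxylysine, had a log2 difference of 0.48, just under 1.4-fold. The collagen chaperone Serpinh1, which is abundant, had 272 ± 79.1 and 347 ± 108 FPKM (SD, n = 4 each), with a log2 difference of 0.36 that missed both thresholds.

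In processing and cross-linking, 3 of 13 were higher. Adamts3, a procollagen N-proteinase, rose from 0.902 ± 0.0696 to 1.67 ± 0.117 FPKM (SD, n = 4 each), with values of 0.834 to 0.97 FPKM in Nr2f2 f/f and 1.5 to 1.77 FPKM in Nr2f2 d/d and a log2 difference of 0.63 (SE 0.0905, limma adjusted p = 0.0189). Adamts2, the proteinase of type I procollagen, had a log2 difference of 0.74 (limma adjusted p = 0.165), and Loxl3, a cross-linking oxidase, -0.29 (limma adjusted p = 0.133). Among receptors and uptake genes, 2 of 9 were higher. Mrc2, the receptor that takes up collagen for breakdown, was at 13.0, 11.7, 14.7 and 13.2 FPKM in Nr2f2 f/f and 26.4, 25.1, 35.5 and 20.9 FPKM in Nr2f2 d/d, and rose with a log2 difference of 0.99 (SE 0.153, limma adjusted p = 0.0219). The lysosomal protease Ctsk, which cuts collagen, had a log2 difference of 0.69 (limma adjusted p = 0.116). Ddr2, a receptor for fibrillar collagen, went the other way at -0.44 (limma adjusted p = 0.114), with less than 1.4-fold. Adamts3 and Mrc2 each passed the adjustment in 4 of the 8 leave-one-out fits.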

How the data were processed

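The authors deposited FPKM. They had trimmed the reads with cutadapt 1.12, aligned them to mm10 with STAR 2.5.2b and counted fragments per gene with featureCounts 1.5.0-p1. Their processing notes also list Cufflinks 2.0.2. Its role, the annotation and the strand setting are not given in the sources used here, nor are the lengths and totals that the FPKM were divided by. FPKM are relative to the library total, and collagen exons share 0 to 6.1% of their bases with other genes in GENCODE vM21, where all 44 symbols were matched. Groups and replicate numbers follow the sample titles, from which the column labels differ for 4 libraries. Depth was recovered from single-exon genes of up to 300 bases, of whose values 87.1 to 92.1% were whole within 0.1 fragments, against 12.5 to 16.9% at other totals. Floors are worth 3 fragments and cover counting error only. The model was limma 3.58.1 in R 4.3.3 (lmFit, eBayes with trend, two-sided, Benjamini-Hochberg over all genes), checked on simulated data; the tables were made with Python 3.11.15. Sequences come from RefSeq. Every collagen gene is named, with the 3 smallest p-values of each pathway list and every adjusted call there; Serpinh1 was chosen after its values were seen. The members, classes, lists and tests were chosen with earlier results of these data known. The authors' count test was replaced by limma on FPKM, since counts were not used here. The alternatives were other pseudocounts, filters, scalings, eBayes settings, a replicate block and leaving out each library.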

Additional observations from a re-analysis of the deposited data

Results flagged for a closer look

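Of 88 groups of 4 values, 1 per collagen gene and genotype, 7 held a library that stood apart from the other 3 by Dixon's test at its 95% level, where chance flags about 1 in 20 groups. Among these, 5 were Nr2f2 d/d replicate 3. It was at 89.6 FPKM for Col5a1, where the other 3 Nr2f2 d/d libraries held 28.7 to 38.8. It was at 123 FPKM for Col15a1, against 56.0 to 60.5, and at 54.2 FPKM for Col16a1, against 35.2 to 37.9. Col8a1 was at 2.81 FPKM in it, against 0.34 to 0.656, and Col2a1 at 0.34 FPKM, against 0.005 to 0.013. In Nr2f2 f/f, Col5a3 was at 8.06 FPKM in replicate 4, against 5.63 to 5.95, and Col25a1 at 0.194 FPKM in replicate 3, against 0.137 to 0.142. The 7 values stand without an explanation here.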

How the results depend on the processing

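Of the collagen genes tested, Col15a1, Col23a1 and Col28a1 changed direction under at least 1 alternative and the others under none that tested them. Col13a1, Col8a1, Col11a2, Col4a4 and Col9a3 fell below the filter in some of these. Col15a1 turned to 0.0115 with median-ratio scaling, and ranged from -0.28 to 0.10 on the log2 scale with each library left out, turning in 6 of those 8 fits. Col23a1 ranged from -0.15 to 0.48 and turned when Nr2f2 d/d replicate 1 or 3 was left out, at -0.15 and -0.069. Col28a1 ranged from -0.092 to 1.13 and turned when Nr2f2 d/d replicate 4 was. Collagen genes past the adjusted threshold numbered 1 without a filter, with genes averaging 1 FPKM or more and with robust estimation, where Col1a2 was lost, 2 with quantile normalization, where Col1a2 was lost and Col4a3 passed, 3 without the eBayes trend, where Col4a3 was added, 0 with the replicate block, and 1 to 4 with each library left out, 3 without Nr2f2 d/d replicate 3, 4 without replicate 4 and 1 in the other 6 fits. The number higher was 9 to 15 and the number lower 2 to 6 with each library left out, and the number lower was 3 with median-ratio scaling. Over all genes, 42 to 348 passed the adjusted threshold with each library left out, and 1 with the replicate block. Leaving out Nr2f2 f/f replicate 1, 3 or 4 gave 62, 208 or 95, and leaving out Nr2f2 d/d replicate 1 or 2 gave 57 or 42. Higher and lower calls were 156 and 219 in all, 191 and 185 with median-ratio scaling, and 125 and 274 with equal FPKM totals. Pathway genes past the threshold were 0 to 3 with each library left out (0 when Nr2f2 f/f replicate 1 or 4 or Nr2f2 d/d replicate 1 or 2 was) and 0 with the block. They were 2, without P4ha3, with 1 added before the log, without a filter and with genes averaging 1 FPKM or more. The same held with median-ratio scaling, equal FPKM totals, quantile normalization and robust estimation. The FACIT median was -0.04 over genes averaging 1 FPKM or more. By the title numbers, on which the replicate block was built, same-numbered libraries had correlations of -0.204, -0.172, 0.0452 and -0.0403. By the column numbers, which only 3 pairs share, they were -0.204, 0.149 and -0.0403, so neither numbering had every pair above 0.1 and the mice were not treated as paired. With the block Nr2f2 kept its log2 fold change of -1.39 and no longer passed the adjusted threshold, and 15 collagen genes were higher and 5 lower. The causes were not tested. Col19a1 was under the worth of 3 fragments in every library, so no difference was detectable at this depth.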
